A study of Mus musculus with 6 samples.

Results

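SWI/SNF complexes remodel chromatin: they use ATP to slide or evict nucleosomes and so open DNA to transcription factors. Each complex holds 1 of 2 alternative motors, BRM (encoded by Smarca2) or BRG1 (encoded by Smarca4), with core subunits. ARID subunits mark the BAF complex, with ARID1A or ARID1B, and the PBAF complex, with ARID2. In adipocyte differentiation, SWI/SNF motors are known to be recruited to the Pparg promoter and to take part in switching on the adipogenic program. The 10 genes described here are Smarca2, Smarca4, Smarcb1, Smarcc1, Smarcc2, Smarcd1, Smarce1, Arid1a, Arid1b and Arid2, of 45706 genes in the table. They were listed because Smarca2 was lower in RBMS1 knockdown adipocytes whichever sample was left out, so the Smarca2 values are given as a description with no test. All 10 passed the filter on low counts, as did 11440 genes in all.

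The samples were 3T3-L1 cells, a mouse embryo fibroblast line that turns into fat-storing adipocytes when given hormones. Both groups had been transduced with lentivirus and selected with puromycin, carried either a scrambled control shRNA (scr ctrl, genotype label WT, n = 3) or an Rbms1 shRNA (RBMS1KD, n = 3), and were induced with IBMX, insulin, dexamethasone and rosiglitazone. RNA was taken on day 7 from 3 biological replicates per group. Whether the replicates came from separate transductions is not given in the sources used here.

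Total counts lay between 3142699 and 11073111 per library, and genes derived from ribosomal RNA took between 8.125% and 43.04% of them. Scr ctrl replicate 2 stood apart with both the smallest total and the largest ribosomal share. The samples are labelled fibroblast, and all 12 adipocyte markers examined had counts. Their summed level was 24253 to 27230 CPM (counts per 1000000 of the library size after TMM scaling) in scr ctrl and 13002 to 23329 CPM in RBMS1KD, with 11 of 12 fitted changes below 0 (49.6% of all tested genes), 0 called by edgeR (1.22% of all tested genes) and 3 at an unadjusted p under 0.05 (12.4%). Without RBMS1KD replicate 1, edgeR called 7 of the 12, and 696 genes in all. DESeq2 called 2 of them (3.2% of all its tested genes) in opposite directions, with Lpl, the lipoprotein lipase gene, at −0.86 (adjusted p = 0.0323) and Cd36, a fatty acid uptake receptor gene, at 0.74 (adjusted p = 0.0156). The 12 preadipocyte or fibroblast markers summed to 7449 to 8298 CPM and 3537 to 7757 CPM, with 8 of the 11 tested below 0, 1 called by edgeR, 3 called by DESeq2, 4 at an unadjusted p under 0.05 and 4 without overlap (18.5% of all tested genes). With 1 sample left out, edgeR called from 0 (without scr ctrl replicate 2 or 3, or RBMS1KD replicate 2) to 4 (without RBMS1KD replicate 1). The lowest summed level of these markers, 3537 CPM, belonged to RBMS1KD replicate 1 alone, which also had the highest adipocyte sum of the knockdown samples. Of the preadipocyte or fibroblast markers, Lum, a matrix proteoglycan, was called lower (log2 fold change −1.92, adjusted p = 0.0333 by edgeR), a call lost without scr ctrl replicate 2 (adjusted p = 0.148), scr ctrl replicate 3 (0.155) or RBMS1KD replicate 2 (0.101). The part of these shifts in the values below was not tested, and in bulk RNA fewer cells of a type and less RNA per cell cannot be told apart.

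The targeted gene Rbms1, which encodes an RNA-binding protein, stood at 113, 102 and 99.6 CPM in scr ctrl replicates 1, 2 and 3 and at 49.2, 61.4 and 84.0 CPM in RBMS1KD replicates 1, 2 and 3. The fit gave −0.69 on the log2 scale (standard error 0.20, adjusted p = 0.185 by edgeR), and without RBMS1KD replicate 3 it was −0.92 (adjusted p = 0.0708). The groups did not overlap, but RBMS1KD replicate 3 lay closer to the controls than the other knockdown samples did.

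Smarca2 (ENSMUSG00000024921) lies on the plus strand of GRCm38 at chr19:26605050-26778322, and its longest coding transcript has 34 exons. BRM, its product, is the motor more often linked to differentiated cells. Its level was 95.2, 153 and 125 CPM in scr ctrl replicates 1, 2 and 3 and 43.1, 39.4 and 40.3 CPM in RBMS1KD replicates 1, 2 and 3. Every knockdown sample was below every control, and the knockdown samples lay much closer together than the controls. The group means were 124 ± 29.1 CPM (SD, n = 3) and 40.9 ± 1.95 CPM (SD, n = 3), a 3.04-fold lower fitted level in RBMS1KD, with a log2 fold change of −1.60 (standard error 0.19, 95% interval −2.03 to −1.18). These levels rested on 309 to 726 counts per control library and 300 to 549 per knockdown library.

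The list was built on Smarca2 being lower with any 1 sample left out, so the direction of those fits was fixed beforehand. Smarca2 stayed near the value above in most settings. With 1 sample left out, it was farthest from 0 without scr ctrl replicate 1 (log2 fold change −1.76) and nearest to 0 without scr ctrl replicate 2 (−1.43), the library with the highest Smarca2 level and the largest ribosomal share. Without RBMS1KD replicate 1, 2 or 3 it was −1.63, −1.56 and −1.59. With library sizes alone and no scaling factors it was −1.17, a setting that moved the median of all tested genes to 0.37. Relative to that median, Smarca2 stood at −1.55. RBMS1KD replicate 3, which kept the most Rbms1, had a Smarca2 level of 40.3 CPM, between those of the other knockdown samples.

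**Figure D1:**
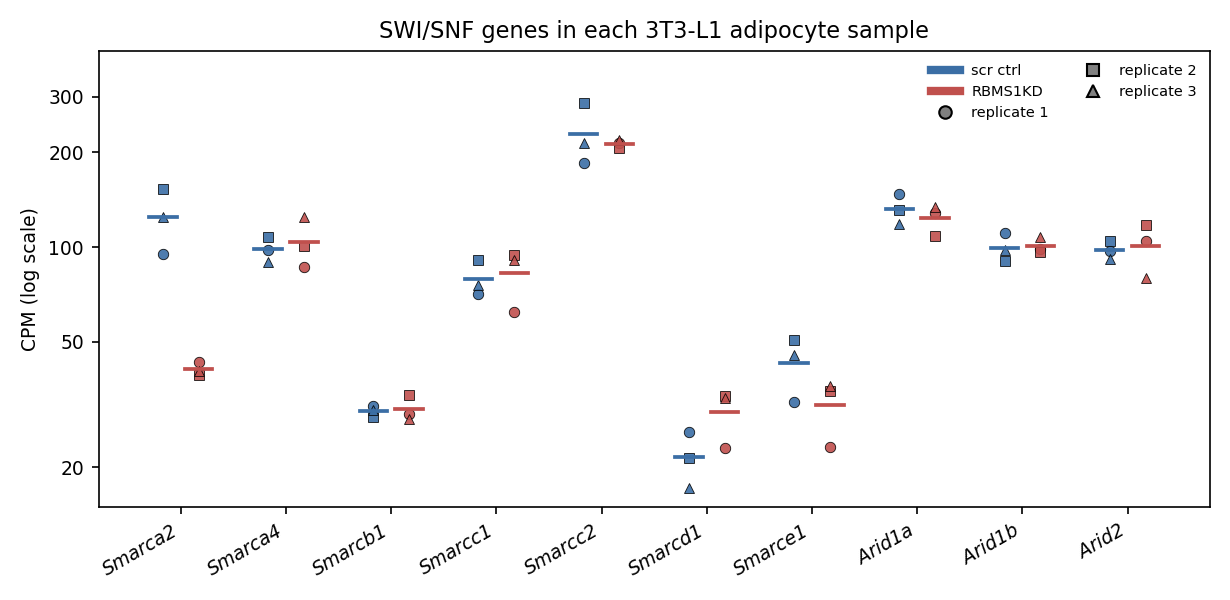
Level of each of the 10 SWI/SNF genes in each sample, in CPM on a log axis, with scr ctrl in blue, RBMS1KD in red, a marker shape per replicate and a bar at each group mean. Smarca2 separates into 95.2 to 153 CPM in scr ctrl and 39.4 to 43.1 CPM in RBMS1KD, while the red and blue points of each of the other 9 genes overlap.

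Smarca4 (chr9:21616169-21704230, plus strand) encodes BRG1, the other motor. It stood at 97.9, 108 and 90.0 CPM in scr ctrl and 86.3, 101 and 124 CPM in RBMS1KD, and the lowest and the highest values both belonged to the knockdown. Its log2 fold change was 0.076 (standard error 0.17, 95% interval −0.31 to 0.46, adjusted p = 0.900 by edgeR). The summed level of both motor genes was 193, 261 and 215 CPM in scr ctrl and 129, 140 and 165 CPM in RBMS1KD, with means of 223 ± 34.7 and 145 ± 18.0 CPM (SD, n = 3 each). These sums did not overlap either, which follows in part from the Smarca2 values used to list the genes.

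The share of Smarca2 in the counts of both motor genes is a ratio within each library and so does not depend on library scaling. It was 49.3% (95% exact binomial interval 46.4 to 52.2), 58.7% (54.4 to 63.0) and 58.1% (55.3 to 60.9) in scr ctrl replicates 1, 2 and 3. It was 33.3% (30.3 to 36.5), 28.1% (25.6 to 30.7) and 24.5% (22.7 to 26.3) in RBMS1KD replicates 1, 2 and 3. The largest knockdown share lay below the smallest control share, with means of 55.4% ± 5.29 and 28.6% ± 4.44 (SD, n = 3 each) and a difference of −26.8 percentage points. Counted per kilobase of transcript, the mean shares were 57.4% and 30.4%. The intervals cover counting error only, and since Smarca2 was chosen on this contrast the difference was not tested.

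The motor genes are paralogues, so it was checked how much sequence their reads could share. Their coding sequences of 4806 and 4854 bases were 74.8% identical over 4687 aligned bases, but no stretch of 31 bases was found in transcripts of both. Their longest identical run, 20 bases, lies in exon 4 of 34 in each longest coding transcript, within coding sequence. It is shown in capitals in the 60-base windows below, where 46 of the 60 positions were equal, because no longer stretch was identical in both motor genes. The sequences are from GENCODE transcripts of GRCm38, Smarca2 at chr19:26630865-26630924 and Smarca4 at chr9:21635725-21635784, both on the plus strand.
Smarca2: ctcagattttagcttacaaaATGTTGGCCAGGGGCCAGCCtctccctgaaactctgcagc
Smarca4: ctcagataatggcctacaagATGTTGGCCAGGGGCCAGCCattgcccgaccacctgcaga

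Across the transcripts annotated for Smarca2 (46 of them), 0.852% of the 31-base stretches also occurred in another gene, and 40 exonic bases, 0.28% of its exonic sequence, overlapped the antisense gene 4931403E22Rik on the other strand. Among the other listed genes the shared portion was highest for Smarce1 at 16.2%, mostly with Gm8494, and for Smarcc1 at 4.6%, mostly with Gm7004. It was 3.99% for Smarcb1, 2.52% for Arid1a, 1.27% for Smarca4, 0.634% for Arid2, 0.182% for Arid1b and 0 for Smarcc2 and Smarcd1. The exons of Smarcd1 overlapped those of Gm17349 on the other strand over 287 bases (7.13%). The Smarce1 and Smarcc1 values are uncertain to the extent that reads were split with these copies.

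Smarca2, which the list was built on, is left out of the counts of calls that follow. Over all tested genes edgeR called 140, or 1.22%, at an adjusted p of 0.1 or less, and 104, or 0.909%, were called lower in RBMS1KD. None of the other 9 listed genes was called by edgeR or by DESeq2 (which called 3.2% of the genes it tested), and 0 of 9 had an unadjusted edgeR p under 0.05, against 12.4% of all tested genes. Control and knockdown samples overlapped for each of the 9, while 18.5% of all tested genes had no overlap and 9.55% had none with the knockdown lower. Their median log2 fold change was 0.02, beside 0.0044 over all tested genes, and single values ran from −0.43 to 0.48 with adjusted p between 0.428 and 0.976.

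**Figure D2:**
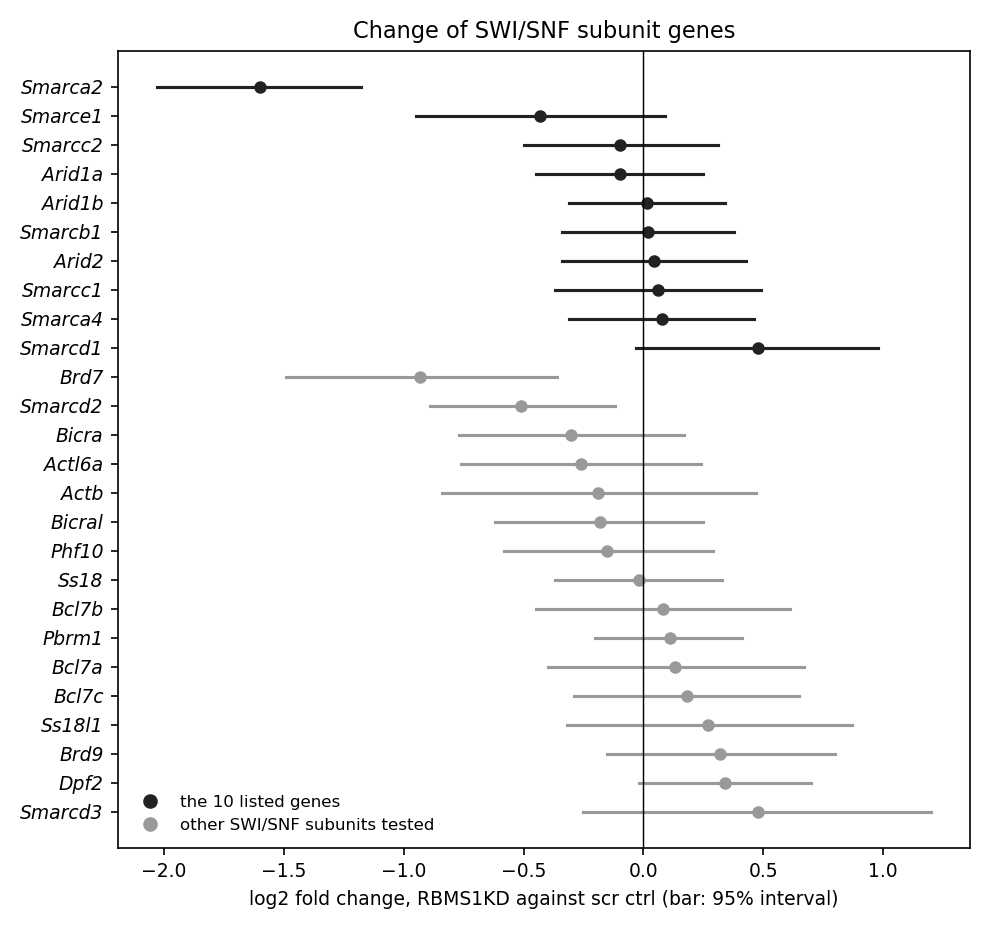
Log2 fold change of RBMS1KD against scr ctrl for the 10 listed genes (black) and 16 other tested SWI/SNF subunit genes (grey), with bars for the 95% interval of the edgeR fit. Smarca2, the gene the list was built on, lies at −1.60, and the other 9 listed genes run from −0.43 (Smarce1) to 0.48 (Smarcd1), each with a bar that crosses 0.

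The core subunit genes Smarcb1 and Smarce1 had fewer counts than the motor genes. Smarcb1 (chr10:75896769-75921617), whose product is a core subunit that contacts the nucleosome and is lost in rhabdoid tumours, stood at 31.3, 28.8 and 30.5 CPM in scr ctrl and 29.5, 33.9 and 28.5 CPM in RBMS1KD. The control values lay inside the wider knockdown range, and the log2 fold change was 0.02 (standard error 0.16, 95% interval −0.34 to 0.38, adjusted p = 0.974 by edgeR). Smarce1 (chr11:99209047-99231017), which encodes an HMG-domain subunit, gave 32.2, 50.8 and 45.3 CPM in scr ctrl and 23.3, 34.8 and 36.2 CPM in RBMS1KD. Replicate 1 was the lowest of each group, and the control replicate 1 lay inside the knockdown range. The log2 fold change of Smarce1 was −0.43 (standard error 0.23, 95% interval −0.95 to 0.09, adjusted p = 0.490 by edgeR). It ranged from −0.60 to −0.25 with 1 sample left out, and with library sizes alone it was −0.013.

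Smarcc1 and Smarcc2 encode the related scaffold subunits that dimerise early in assembly. Smarcc1 (chr9:110117708-110240178) stood at 71.0, 91.3 and 75.9 CPM in scr ctrl and 62.1, 94.5 and 91.3 CPM in RBMS1KD. Smarcc2 (chr10:128459248-128490482) stood at 184, 286 and 214 CPM in scr ctrl and 214, 206 and 219 CPM in RBMS1KD. For Smarcc2 the knockdown samples lay inside the control range, which was wide because of scr ctrl replicate 2. The log2 fold changes were 0.06 for Smarcc1 (95% interval −0.37 to 0.49, adjusted p = 0.934) and −0.098 for Smarcc2 (95% interval −0.50 to 0.31, adjusted p = 0.873), both by edgeR.

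Smarcd1 (chr15:99702129-99713991) encodes an accessory subunit that links the complex to transcription factors. Its level was 26.0, 21.3 and 17.2 CPM in scr ctrl and 23.0, 33.7 and 33.2 CPM in RBMS1KD. RBMS1KD replicates 2 and 3 were above all controls and RBMS1KD replicate 1 was within them. The log2 fold change of 0.48 (standard error 0.23, 95% interval −0.03 to 0.98) was the highest of the 10 and did not pass the test (adjusted p = 0.428 by edgeR).

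The ARID subunits mark the BAF and PBAF forms of the complex. Arid1a (chr4:133679008-133756769) stood at 147, 132 and 118 CPM in scr ctrl and 129, 109 and 134 CPM in RBMS1KD, and its paralogue Arid1b (chr17:4994332-5347656) at 111, 90.3 and 97.7 CPM and at 98.3, 96.4 and 108 CPM. Arid2 (chr15:96287518-96404992) stood at 97.3, 105 and 91.5 CPM in scr ctrl and 105, 118 and 79.9 CPM in RBMS1KD. The groups overlapped for all 3 ARID genes. Their log2 fold changes were −0.097 for Arid1a (95% interval −0.45 to 0.25, adjusted p = 0.849), 0.016 for Arid1b (−0.31 to 0.34, adjusted p = 0.976) and 0.044 for Arid2 (−0.34 to 0.43, adjusted p = 0.945) by edgeR.

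Levels of different genes were compared per kilobase of each gene's longest coding transcript. In scr ctrl, Smarcc2 was the highest with a mean of 56.6 CPM per kb, and its range of 45.7 to 70.9 did not meet that of Smarca2, the next in order with a mean of 21.2 and a range of 16.2 to 26.2. Then came Smarcb1 at 18.2, Arid1a at 16.2, Smarca4 at 15.5, Smarce1 at 14.7, Smarcc1 at 13.9 and Arid1b at 13.6 CPM per kb, and from Smarca2 to Arid1b the ranges of neighbours in the order overlapped. Arid2 at 11.5 (10.8 to 12.3) lay just below the range of Arid1b (12.4 to 15.2), and Smarcd1 was the lowest at 6.50 (5.20 to 7.85). In RBMS1KD, Smarca2 was last of the 10 with a mean of 6.98 CPM per kb (6.72 to 7.36), a range that met that of Smarcd1 (mean 9.06, range 6.96 to 10.2) but not that of Smarce1 (mean 10.8, range 7.97 to 12.4). Smarca4 had a mean of 15.5 CPM per kb in scr ctrl (14.1 to 16.9) and 16.3 in RBMS1KD (13.5 to 19.5). The motor mRNA with the higher mean level was that of BRM in the controls, where both ranges overlapped, and that of BRG1 in the knockdown. This order rests in part on the Smarca2 values that chose the list.

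Within-library shares were also taken for the other paralogue families, of which 4 were tested with a two-sided exact permutation test that cannot give a p below 0.1 with 3 samples against 3. Smarcd1 made up 34.0%, 26.2% and 24.4% of the counts of Smarcd1, Smarcd2 and Smarcd3 in scr ctrl and 37.6%, 40.9% and 44.1% in RBMS1KD. All 3 knockdown shares were above all 3 control shares, with a difference of 12.6 percentage points (28.2% ± 5.06 against 40.9% ± 3.29, SD, n = 3 each, exact permutation p = 0.1, adjusted over the 4 shares 0.4). Smarcc2 gave 72.2%, 75.8% and 73.8% of the scaffold counts in scr ctrl and 77.5%, 68.6% and 70.6% in RBMS1KD (exact permutation p = 0.7, adjusted 0.9). Arid1b gave 42.9%, 40.7% and 45.3% of the ARID1 counts in scr ctrl and 43.3%, 47.0% and 44.5% in RBMS1KD (exact permutation p = 0.4, adjusted 0.8). Arid2 gave 27.4%, 32.1% and 29.8% of the counts of the 3 ARID genes in scr ctrl and 31.6%, 36.5% and 24.8% in RBMS1KD (exact permutation p = 0.9, adjusted 0.9). For these last 3 families the control and knockdown shares overlapped.

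**Figure D3:**
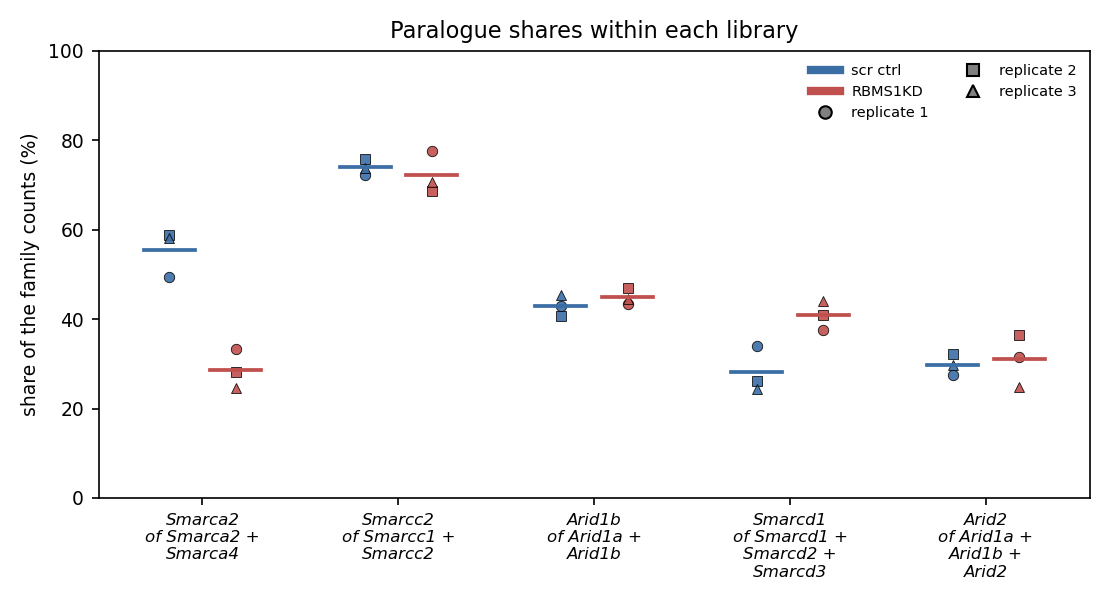
Share of 1 paralogue in the counts of its family in each library, in percent, with scr ctrl in blue, RBMS1KD in red, a marker shape per replicate and a bar at each group mean. The Smarca2 share of the motor counts lies between 49.3% and 58.7% in scr ctrl and between 24.5% and 33.3% in RBMS1KD, and the Smarcd1 share is the only other one whose groups do not overlap.

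The rest of the complex was read from a list of 19 further subunit genes, of which 16 were tested. Actl6b had no count in any sample, and Dpf1 and Dpf3 were too low to test. EdgeR called 0 of the 16, with 2 at an unadjusted p under 0.05 (12.4% of all tested genes), and DESeq2 called 1 (3.2% of all its tested genes). In 4 of 16 the groups did not overlap, beside 18.5% of all tested genes, and the median log2 fold change was 0.03. The lowest value was that of Brd7, a bromodomain subunit of PBAF, which stood at 37.7, 78.4 and 50.4 CPM in scr ctrl and 27.7, 31.9 and 27.3 CPM in RBMS1KD. Every knockdown sample was below every control, yet its log2 fold change of −0.93 (standard error 0.25) had an adjusted p of 0.160 by edgeR and 0.0516 by DESeq2. Without scr ctrl replicate 2, its highest sample, Brd7 was −0.61 (adjusted p = 0.427 by edgeR). Next was Smarcd2, a paralogue of Smarcd1, at 44.2, 55.1 and 44.7 CPM in scr ctrl and 32.2, 38.1 and 30.9 CPM in RBMS1KD (log2 fold change −0.51, adjusted p = 0.253 by edgeR). At the other end, Smarcd3, the muscle- and heart-associated paralogue, had a log2 fold change of 0.48 (adjusted p = 0.593) and Dpf2, a reader of acylated histone tails, one of 0.34 (adjusted p = 0.433), both by edgeR.

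Brd7 lies on chromosome 8, where fitted values were low as a whole: 562 of the 624 tested genes on it had a log2 fold change below 0, against 49.6% of all tested genes, and their median was −0.38. The median of each chromosome was then taken out sample by sample, with the first 50 Mb of chromosome 3 as a unit of its own. In this setting Brd7 stood at −0.52 (adjusted p = 0.523 by edgeR). Actl6a, an actin-related subunit on the first 50 Mb of chromosome 3, where the median of 91 tested genes was −0.64, went from −0.26 to 0.36 in the same setting. Smarca2 stood at −1.72 there, and the 414 tested genes of its own chromosome 19 had a median of 0.11.

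ATPases of the other remodeler families (ISWI, CHD, INO80 and related SNF2 proteins) served as a second list of 26 genes. Chd7 was too low to test, and edgeR called 0 of the other 25, with 2 at an unadjusted p under 0.05 (12.4% of all tested genes) and 0 called by DESeq2. In 4 of 25 the groups did not overlap, a share near the 18.5% of all tested genes, and the median log2 fold change was 0.085. The lowest values were those of Chd9 (log2 fold change −0.45, adjusted p = 0.267) and Hltf (−0.44, adjusted p = 0.518), and the highest those of Chd5 (0.41, adjusted p = 0.851) and Zranb3 (0.39, adjusted p = 0.694), all by edgeR. Chd9 is on chromosome 8 and Hltf on the first 50 Mb of chromosome 3. With the median of chromosome 8 and that of this part of chromosome 3 removed, they stood at −0.047 and 0.19.

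Genes that start within 2 Mb of the start of Smarca2 were examined to see how far the lower level extended along chromosome 19. Of 31 annotated genes in the table, 8 were tested, with a median log2 fold change of −0.021. Of the 4 tested genes upstream, Kank1, the nearest at −1.368 Mb, had a log2 fold change of 0.03 (adjusted p = 0.970), and Gm10053, Cbwd1 and Dock8 had values of −0.74, 0.46 and 1.11 (adjusted p between 0.415 and 0.617 by edgeR). Without RBMS1KD replicate 1, Gm10053 was −1.35 (adjusted p = 0.0907 by edgeR), and without RBMS1KD replicate 3, Dock8 was 0.47. Cbwd1 ranged from 0.18 to 0.63 with 1 sample left out. Downstream, Vldlr, a lipoprotein receptor gene at 0.611 Mb, stood at 193, 212 and 190 CPM in scr ctrl and 151, 127 and 92.4 CPM in RBMS1KD. Its groups did not overlap, but its log2 fold change of −0.68 did not pass the edgeR test over all 6 samples (adjusted p = 0.169). It was called by DESeq2 (adjusted p = 0.0669) and by edgeR without RBMS1KD replicate 1 (adjusted p = 0.0313). D19Bwg1357e and Rfx3 followed at 0.18 (adjusted p = 0.794) and −0.073 (adjusted p = 0.945 by edgeR).

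Glis3, which encodes a zinc finger transcription factor and starts 1.654 Mb downstream of the Smarca2 start, was the 1 neighbour called of the 8 tested, beside 1.22% of all tested genes. It stood at 49.7, 29.3 and 38.5 CPM in scr ctrl and 19, 14.6 and 18.5 CPM in RBMS1KD, and every knockdown sample was below every control. The fit gave −1.18 (standard error 0.22, adjusted p = 0.0690 by edgeR). The call was lost without scr ctrl replicate 1 (adjusted p = 0.213), 2 (0.106) or 3 (0.231), without RBMS1KD replicate 2 (0.234) and with library sizes alone (0.264). Between the starts of Smarca2 and Glis3 lay Vldlr at −0.68 and D19Bwg1357e and Rfx3 near 0.

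**Figure D4:**
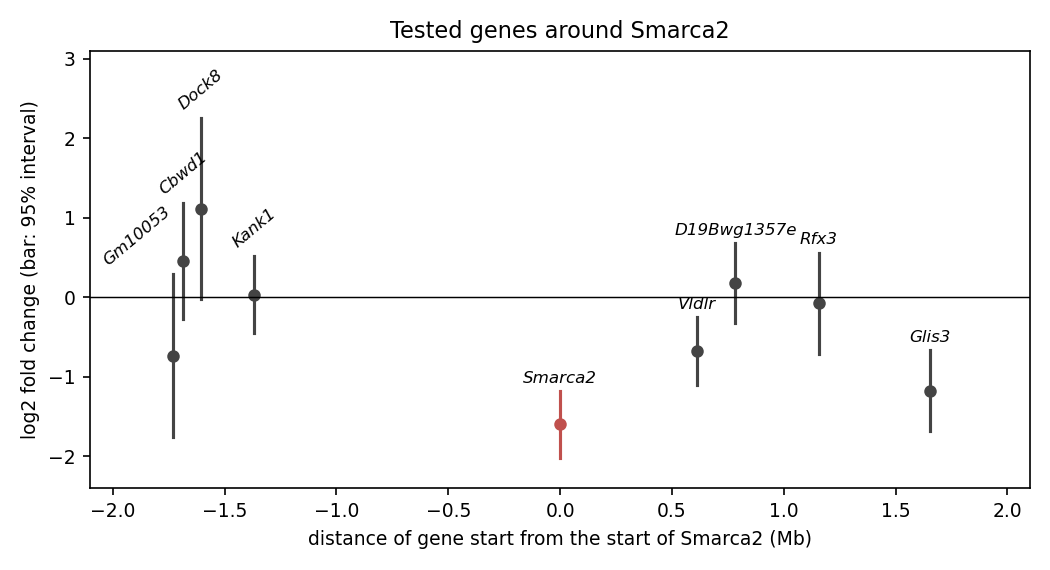
Log2 fold change of RBMS1KD against scr ctrl for Smarca2 (red) and the 8 tested genes that start within 2 Mb of it (grey), by distance of the gene start from the Smarca2 start in Mb, with bars for the 95% interval. The Smarca2 point is lowest at −1.60, Glis3 at 1.654 Mb is at −1.18 and Vldlr at 0.611 Mb is at −0.68, while Kank1, D19Bwg1357e and Rfx3 lie near 0.

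RBMS family proteins are known to bind AU-rich RNA, so the 3′ untranslated regions (UTRs) of the 10 genes were read for the letters ATATA on the transcript strand (each T is a U in the RNA), the only motif searched. Smarca2 had 2 matches in a 3′ UTR of 905 bases (2.21 per kb), 547 and 598 bases after the stop codon. They are shown with 10 bases on each side and the match in capitals, at chr19:26777907-26777931 and chr19:26777958-26777982 of GRCm38, plus strand, because Smarca2 is the gene whose level differed most.
Smarca2, the first match: actgtggtacATATAagcaacttga
Smarca2, the second match: tatcacctacATATAcatttttcca

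Such matches were common. Of 10045 tested genes with a 3′ UTR of at least 100 bases, 57.9% held 1 or more, with 1.53 matches per kb, and of the 1530 whose 3′ UTR was of a length near that of Smarca2, 53.8% did. Among the other listed genes, Arid2 had 10 matches (3.45 per kb), Smarca4 and Arid1a 2 each (1.58 and 1.51 per kb), Arid1b and Smarce1 1 each (2.39 and 0.978 per kb), and Smarcb1, Smarcc1, Smarcc2 and Smarcd1 none. A match describes these letters and is not a binding site.

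The genes whose pattern over the 6 samples was most like that of Smarca2 were found by Pearson's r on log2 CPM among 8158 tested genes with a mean of at least 10 CPM, as a description with no p. They were Pik3ca (r = 0.996), Tsnax (0.993), Sarnp (0.991), Cgnl1 (0.988) and S100a13 (0.987). Tsnax stood at 27.1, 39.7 and 37.9 CPM in scr ctrl and 9.06, 7.60 and 7.19 CPM in RBMS1KD, and Pik3ca at 52.6, 72.0 and 63.8 CPM and at 33.2, 34.4 and 32.7 CPM. Like Smarca2, both had scr ctrl replicate 2 as their highest sample and a narrow range in the knockdown. Samples of a group share a treatment, so a high r largely restates the difference between the groups. Tsnax is on chromosome 8 and Pik3ca on the first 50 Mb of chromosome 3. With the median of chromosome 8 and that of this part of chromosome 3 removed, Tsnax went from −2.13 to −1.73 and Pik3ca from −0.91 to −0.28 on the log2 scale.

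Of the other 9 listed genes, Smarce1 came closest with r = 0.70 (rank 1075 of 8158), followed by Smarcc2 at 0.42 and Arid1a at 0.26. Smarcc1, Arid2, Smarca4, Smarcb1 and Arid1b lay between −0.02 and −0.31, and Smarcd1 was the lowest at −0.76.

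**Figure D5:**
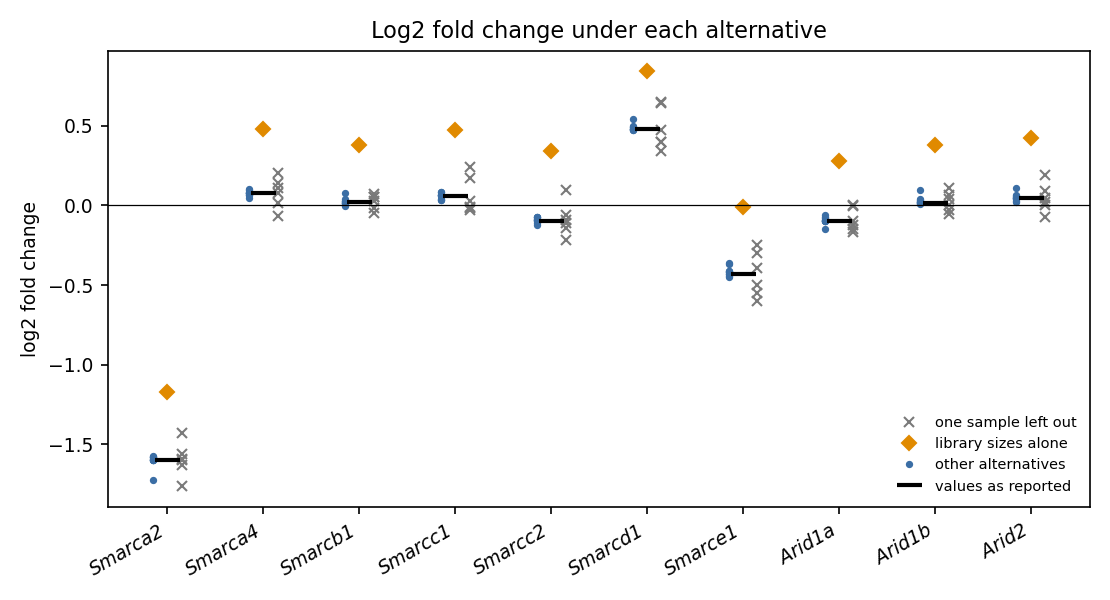
Log2 fold change of the 10 listed genes under each way of processing the counts, with a black bar for the value as reported, blue points for other tests, scalings and filters, orange diamonds for library sizes alone and grey crosses for 1 sample left out. Smarca2 values, which chose the list, run from −1.76 to −1.17. Of the other 9 genes, 7 have values on both sides of 0.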

How the data were processed

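Mature 3T3-L1 cells of 6 samples, 3 scr ctrl and 3 RBMS1KD, were profiled by RNA sequencing of ribosomal RNA-depleted stranded libraries. The authors trimmed reads with Trim Galore 0.6.7, used STAR 2.7.10a for alignment to GRCm38 and Salmon 1.9.0 for quantification, and deposited estimated counts per gene, not normalized. The annotation release is not given in the sources used here. Values were rounded to whole numbers first, which altered 3.97% to 7.78% of them per library (by more than 1e-06).

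The table held 45706 genes, 26283 of them without a count. Condition was tested by edgeR 4.0.16 under R 4.3.3 (quasi-likelihood, filterByExpr, TMM), with Benjamini-Hochberg adjustment over the 11440 genes kept and calls at an adjusted p of 0.1 or less. A count of 0 allows up to 0.22 to 1.49 CPM, the level of 3 counts. Alternatives were DESeq2 1.42.0, limma-voom 3.58.1, RLE factors, library sizes alone or without ribosomal RNA genes, other filters (none, or 1 CPM in 3 samples), removal of chromosome medians or of GC and length trends (loess, span 0.3), a replicate block, each sample left out, and edgeR's earlier quasi-likelihood estimate, the last chosen after seeing the data. For chromosome medians, the first 50 Mb of chromosome 3 formed a unit of its own. Units with fewer than 50 tested genes were left unchanged. The tests were also run on simulated data, where the smaller changes were often not called and some calls were false.

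Gene positions, transcripts and sequences came from GENCODE M21, which held 11402 of the tested genes. RefSeq tables were not used. The 10 genes and all gene lists were chosen with earlier results of these data known. Every listed gene is named, as are Rbms1, all tested neighbours within 2 Mb, the 2 highest and 2 lowest genes of each further list, and the 5 genes most like Smarca2 (log2 CPM with 0.5 added). Actl6a, Lum, Lpl and Cd36 fall outside this rule and were named after their values were seen. Samples were grouped by their labels. The main fit did not pair samples by replicate number, as same-numbered samples showed no shared deviation.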

Additional observations from a re-analysis of the deposited data

How the results depend on the processing

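The log2 fold change of Smarca2 lay between −1.76 and −1.43 with 1 sample left out and at −1.17 with library sizes alone, which moved the median of the other 9 genes from 0.02 to 0.38 and that of all genes to 0.37. With 1 sample left out that median of 9 lay between −0.032 and 0.092. None of the other 9 listed genes was called in any of the 17 alternatives. DESeq2 called 1 of the 16 further subunits and 2 neighbours of Smarca2, against 0 and 1 in edgeR, and neighbours called were 0 with library sizes alone and 0 to 3 with 1 sample left out. Among all genes, 140 calls became 430 by DESeq2, 268 with no filter on low counts, 71 with chromosome medians removed and 12 to 696 with 1 sample left out (12 without scr ctrl replicate 2, 696 without RBMS1KD replicate 1). Of the calls, 74.3% were lower in RBMS1KD, against 33.3% with library sizes alone, 66.3% by DESeq2, 61.2% without RBMS1KD replicate 1 and 100% without scr ctrl replicate 2.

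Fitted signs of these genes turned, none of them past the test. With library sizes alone Smarcc2 was 0.34, Arid1a 0.28, Actl6a 0.14, Rfx3 0.36 and Sarnp 0.023. With chromosome medians removed Actl6a was 0.36, Hltf 0.19 and Kank1 −0.086. By limma-voom Smarcb1 was −0.0016 and Rfx3 0.073. With 1 sample left out, Smarca4 ranged from −0.069 to 0.20, Smarcb1 from −0.045 to 0.074, Smarcc1 from −0.032 to 0.24, Smarcc2 from −0.22 to 0.094, Arid1a from −0.17 to 0.0031, Arid1b from −0.052 to 0.11 and Arid2 from −0.07 to 0.19. Over the same fits Chd5 ranged from −0.096 to 1.05, Kank1 from −0.12 to 0.22, Rfx3 from −0.27 to 0.20 and D19Bwg1357e from −0.032 to 0.34. The cause was not tested.

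The replicate numbers are shared by both groups in the labels. Deviations of same-numbered samples had r of −0.144, 0.0785 and −0.0284, within the range of differently numbered samples (−0.173 to 0.206). No pairing was seen, but 3 samples per group cannot show that the samples were unpaired. With a replicate block edgeR called 39 genes, 0 of the other 9 listed genes and 0 neighbours (Glis3 at −1.15, adjusted p = 0.111), and Smarca2 was −1.58.

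The smallest library sets the limit for low genes such as Smarcd3, which had 10 counts in scr ctrl replicate 2.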
